A study of Americamysis bahia with 35 samples.

Results

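The 100 genes described here had the highest mean abundance in unexposed young of Americamysis bahia, a shrimp-like mysid of estuaries that serves as a test species in ecotoxicology, out of 22900 genes of a Trinity assembly. A Trinity gene is a group of assembled transcripts that share an identifier. Abundance is given in TPM, in which the reads of each transcript are divided by its length and all transcripts of a library sum to the same fixed total. The TPM of all transcripts of a gene were summed in each library, and the 100 genes with the highest mean over the 5 control libraries were kept. The genes were thus chosen by their control values, and the values of the 30 exposed libraries played no part.

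Whole juveniles, labelled as 5 days old, were held for 96 h in water at 25 ppt with no tire-wear particle leachate (control, 0 g/L), with unweathered leachate at 0.27, 0.54 or 1.08 g/L, or with weathered leachate at 0.67, 1.34 or 2.68 g/L. Each of the 7 groups had 5 libraries of poly(A)-selected RNA, and all mysids were fed Artemia nauplii every 12 h. The labels name no strain or genotype and do not say whether a library was 1 animal or a pool, or whether libraries of a group shared a tank, so the p-values below rest on the spread between libraries alone, part of which may be technical. The RNA came from whole bodies, so a lower value cannot be divided into fewer cells of a type and less RNA per cell. Markers of a tissue could not be looked up, since the files do not pair the identifiers with gene names.

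In whole crustaceans the most abundant polyadenylated transcripts commonly encode proteins of the ribosome, the contractile apparatus of muscle, the cuticle, mitochondrial energy metabolism, oxygen transport and digestion. Ribosomal and muscle transcripts are usually present in all well-fed animals, whereas cuticle and digestive transcripts follow the moult cycle and feeding. None of these functions can be assigned to a gene below, and genes are called by their rank in the controls, with the identifier for those the results turn on.

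A small number of genes held much of each library. Together the 100 genes took 44.9% of all TPM in the control libraries (SD 2.38, n = 5), and between 41.4% and 50.04% in the 35 libraries, with a median of 44.9%. The gene of rank 1 alone held from 1.78% to 6.59% of TPM. Over all libraries the 5 highest genes held 13.8% on average, the 10 highest 18.2%, the 50 highest 35.4%, and the genes of ranks 51 to 100 only 9.64%. Between 97 and 159 genes were needed to reach 50% of the TPM of a library, with a median of 128.

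The gene of rank 1, TRINITY_DN13097_c0_g1, had 5 transcripts and measured 23205, 34546, 32937, 55504 and 19491 TPM in the 5 control libraries (mean 33136, SD 14028). Its highest control library stood at nearly 3 times its lowest. It remained the most abundant gene by group mean in all 6 exposed groups, where its means lay between 36751 TPM (SD 8684, n = 5) at unweathered 1.08 g/L and 50563 TPM (SD 8329, n = 5) at weathered 1.34 g/L. Its levels in the 6 exposed groups overlapped, and edgeR's quasi-likelihood test for any difference among them gave an adjusted p of 0.824.

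The next 4 genes were much steadier. TRINITY_DN492_c1_g2 (rank 2) measured 30233, 25126, 29719, 33674 and 30390 TPM in the controls, a mean of 29828 (SD 3058, n = 5). TRINITY_DN6043_c0_g1 (rank 3) measured 27587, 27850, 28353, 29315 and 27864 TPM, a mean of 28194 (SD 685, n = 5), so that its 5 controls lay close together and overlapped with those of rank 2. TRINITY_DN7294_c2_g1 (rank 4) averaged 21699 TPM (SD 948, n = 5) and TRINITY_DN6074_c1_g1 (rank 5) 19924 TPM (SD 1056, n = 5), with control ranges of 20638 to 23141 and 18407 to 21389 TPM that overlapped each other. After these 5 genes the level dropped to 10888 TPM at rank 6 (SD 602, n = 5).

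At the lower edge the list has no gap. TRINITY_DN18930_c4_g1 at rank 100 averaged 1590 TPM (SD 96.6, n = 5) and TRINITY_DN37_c0_g1, the next gene and just outside, 1576 TPM (SD 79.6, n = 5), a difference well inside the spread of either. Of the 100 genes, 84 had their lowest control library above the mean of that next gene. Ranking by the median of the controls kept 97 of the 100 genes. Ranking by CPM (counts per library total), which are not divided by length, kept 60.

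**Figure D1:**
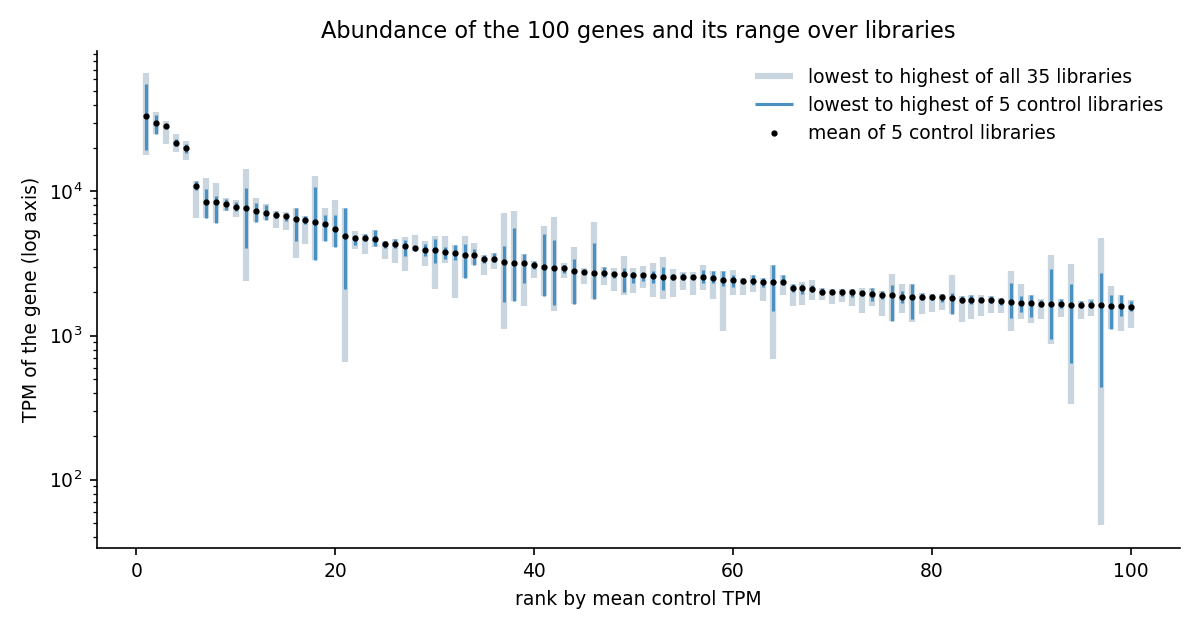
TPM on a log axis against the rank of each of the 100 genes, with the mean of the 5 control libraries as a point, the control range as a dark line and the range over all 35 libraries as a pale bar. Most bars are short, the first 5 genes stand above the rest, and the bar of rank 97 runs from 48.3 to 4761 TPM.

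Most of the genes had short transcripts. The length of a gene, weighted by the TPM of its transcripts, had a median of 1020 bases over the 100 genes and ran from 429 to 6174 bases, against a median of 1836 bases over 17978 tested genes with a control TPM and 1400 bases over the next 900 genes by rank. Of the 100 genes, 48 were under 1000 bases, against 21.05% of the tested genes, and 5 were over 3000 bases, against 22.4%. Since TPM divides by length, length is tied to the way the genes were chosen, and the list ranked by CPM had a median of 1944 bases.

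Several genes combined high abundance with great length. At rank 7, TRINITY_DN1370_c0_g2 had 8 transcripts, the longest of 17340 bases, and averaged 8503 TPM in the controls (SD 1772, n = 5). A second gene of the same Trinity cluster, TRINITY_DN1370_c0_g1 at rank 20, had a longest transcript of 12269 bases and averaged 5490 TPM (SD 1148, n = 5). Weighted by the TPM of their transcripts, the lengths were smaller, 6174 bases at rank 7 and 3234 bases at rank 20. Deviations of this pair from their group means had a Pearson correlation of 0.92 over the 30 exposed libraries. Ranks 2 and 12, TRINITY_DN492_c1_g2 and TRINITY_DN492_c4_g1, have like identifiers but belong to different clusters, c1 and c4. Their correlation was 0.71. Reads from near-identical sequences can be divided between genes of 1 cluster, so the separate levels of ranks 7 and 20 are uncertain. These identifiers were chosen for display after their values were seen.

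Single-transcript genes made up 44 of the 100, against 62.1% of all tested genes, and 56 had 2 or more. The median was 2 transcripts, the same as over the next 900 genes by rank, against 1 over all tested genes. Among those 56 the leading transcript held a median of 90.1% of the TPM of its gene in the controls, and in 28 it held more than 90%. The lowest such share was 39.3%. In 2 genes another transcript led in at least 1 exposed group.

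The list was largely the same in exposed animals. In all 6 exposed groups 83 of the genes were again among the 100 highest by group mean, and 17 fell outside in at least 1 group. From 85 genes at unweathered 1.08 g/L to 95 at weathered 0.67 g/L were kept in a single group. The gene that had stood highest in the controls among the 17 was that of rank 21, and the lowest position reached by any was 223, by the gene of rank 97 at unweathered 0.27 g/L.

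Within groups most of the genes varied little. The SD of log2(TPM + 1), pooled within the 6 exposed groups, had a median of 0.11 over the 100 genes, 0.20 over the next 900 genes by rank and 0.26 over all 17982 genes tested, so the ratio of the first to the last was 0.435 (SD 0.0727 over the 6 groups). On TMM-scaled CPM the same ratio was 0.759. Counting error is smaller for abundant genes, and its part in this difference was not tested. The square root of edgeR's dispersion measures spread beyond counting error, here in the fit of all 35 libraries. Its median was 0.149 over the 100 genes, 0.154 over the next 900 and 0.222 over all genes tested. By that measure the 100 genes were close to the next 900. edgeR draws the dispersion of each gene toward that of genes of like abundance, and the part of this in the closeness was not tested. For 78 genes the highest of the 35 libraries was less than 2 times the lowest, and the median ratio was 1.48.

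The steadiest and the most variable gene were far apart. TRINITY_DN1392_c0_g2 at rank 14 had the lowest SD, 0.06 on the log2 scale, with group means from 5965 TPM (SD 386, n = 5) at unweathered 0.54 g/L to 6904 TPM (SD 260, n = 5) in the controls. TRINITY_DN12619_c0_g1 at rank 97 had the highest, 1.67. Its libraries at unweathered 0.27 g/L measured 2049, 214, 963, 48.3 and 433 TPM, and those at unweathered 0.54 g/L 4160, 333, 156, 1021 and 1592 TPM. At weathered 0.67 g/L they measured 4761, 2065, 395, 371 and 2443 TPM. Libraries of every group overlapped, and the 5 at unweathered 1.08 g/L, from 641 to 1039 TPM, lay closest together.

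Variation inside the groups was shared between genes. Pearson correlations of the deviations of log2(TPM + 1) from the group means were computed for all 4950 pairs over the 30 exposed libraries, and genes joined by a correlation of at least 0.8, directly or through others, were put in 1 set. The median correlation was 0.14, 264 pairs reached 0.8, and 10 sets arose that left 22 genes in none. The 30 points of a correlation share their libraries and the fixed sum of TPM, so the values describe these libraries only.

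The largest set held 45 genes, among them ranks 2 to 6, 9 and 10. Its pairs had a median correlation of 0.69, from -0.18 to 0.95, so some members are tied only through others. Its genes took between 17.8% and 23.3% of TPM in the 35 libraries, and its median SD was 0.09. In the controls this share was 21.4% (SD 0.873, n = 5) and at weathered 0.67 g/L 21.5% (SD 1.17, n = 5), and the means of the other 5 groups lay between 19.6% and 20.4%.

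A second set of 14 genes carried most of the variable ones. It held ranks 1, 11, 18, 31, 37, 38, 41, 42, 44, 53, 92, 94, 97 and 98, with a median correlation of 0.73, and 10 of the 14 were shorter than 1000 bases. Its share of TPM ran from 3.93% to 13.2%, and its median SD was 0.47 on the log2 scale. Of the 19 genes whose SD exceeded the median of all tested genes, 12 were in this set and 0 in the set of 45, and of the 9 genes whose highest library was more than 4 times the lowest, 7 were in it.

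Inside the 14, the gene of rank 1 moved with that of rank 18 (correlation 0.98) and with that of rank 11 (0.94). Ranks 37, 94 and 97 formed a tighter group, with correlations of 0.96, 0.96 and 0.98 between them. Between the sets of 45 and 14 the median correlation was -0.38. Of the other 8 sets, ranks 15, 48, 52 and 67 made 1 of 4 genes, ranks 8, 33 and 76 made 1 of 3, and 6 were pairs. One of these pairs, ranks 32 and 59, had a correlation of 0.99.

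**Figure D2:**
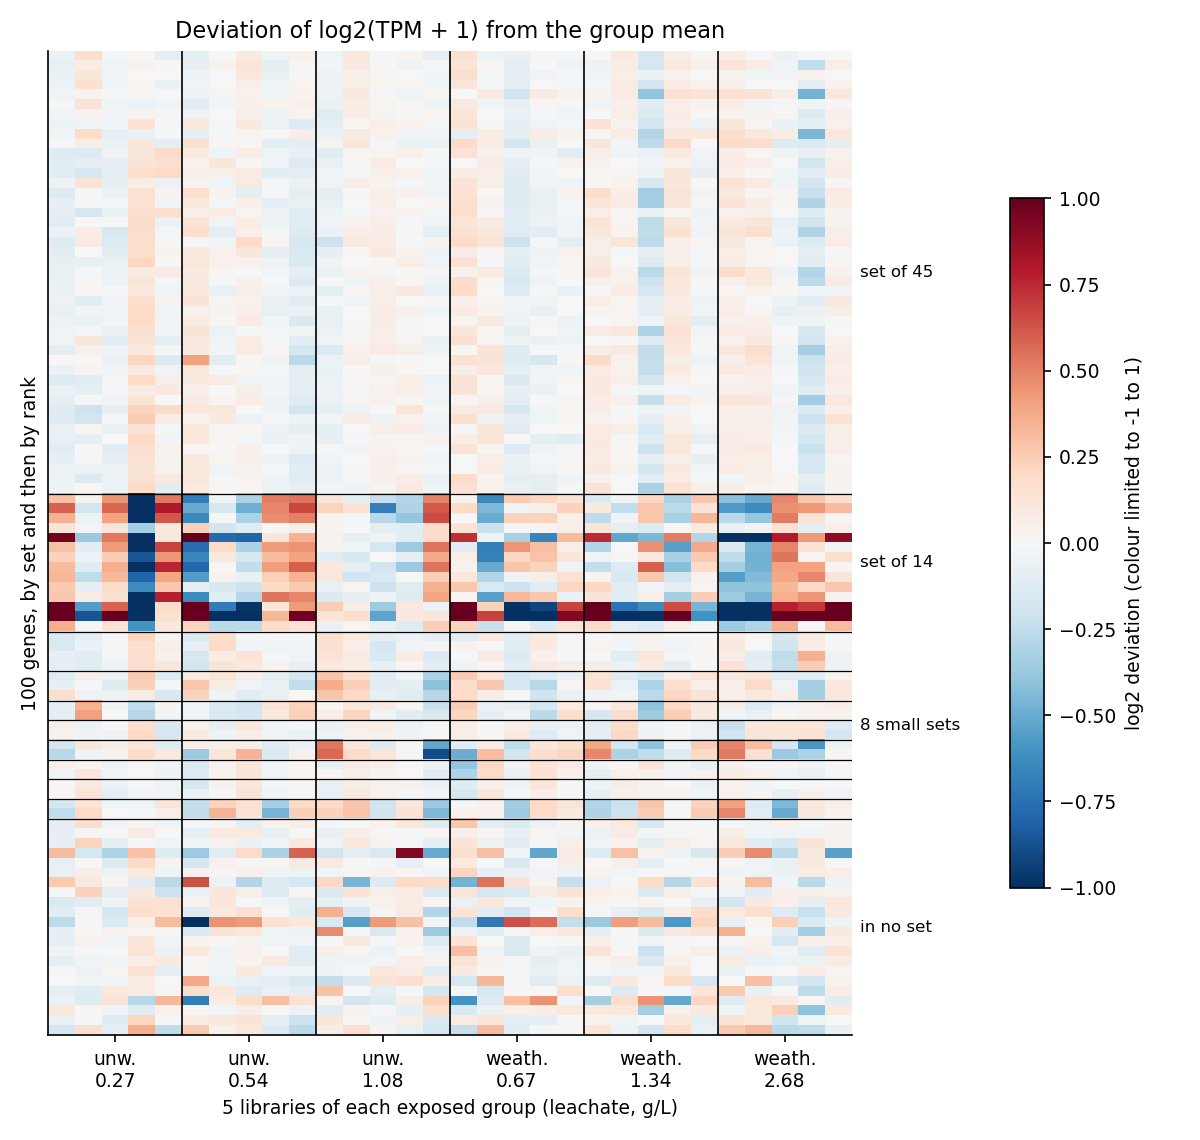
Deviation of log2(TPM + 1) from the group mean for the 100 genes (rows, by set and then by rank) in the 30 exposed libraries (columns, by unweathered or weathered leachate and its concentration in g/L), with colours limited to -1 and 1. The set of 14 genes carries the strong colours, with 1 library at unweathered 0.27 g/L deep blue in most of its rows, and the set of 45 stays pale.

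Exposed groups were compared with each other, since the controls had chosen the genes. The share of TPM held by the 100 genes was 45.7% (SD 2.62, n = 5), 44.8% (SD 2.40, n = 5) and 42.9% (SD 1.05, n = 5) at 0.27, 0.54 and 1.08 g/L of unweathered leachate, and 47.0% (SD 2.08, n = 5), 46.3% (SD 1.34, n = 5) and 43.8% (SD 1.63, n = 5) at 0.67, 1.34 and 2.68 g/L of weathered leachate. In both leachates the mean was lowest at the highest concentration.

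At unweathered 1.08 g/L the 5 libraries held 43.2%, 43.8%, 41.9%, 41.8% and 44.0%, and at 0.27 g/L 45.9%, 46.2%, 46.7%, 41.4% and 48.4%. The single library at 41.4% lay below all 5 of the higher concentration, and the others lay above them. The difference of -2.76 percentage points did not pass the exact permutation test (2-sided, p = 0.0714, adjusted over 3 comparisons 0.0714), in which 0.00794 is the smallest p that 5 against 5 allows. Without the library at 41.4% it was -3.85 points with an adjusted p of 0.0238, also by exact permutation, and over the 10 libraries left out in turn it reached -2.08 points at the other end, with a highest adjusted p of 0.143.

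Weathered leachate gave a difference of like size. The libraries held 43.2%, 41.9%, 45.7%, 43.0% and 45.3% at 2.68 g/L and 50.04%, 44.7%, 45.5%, 47.1% and 47.7% at 0.67 g/L, so the groups overlapped. The difference was -3.20 points (exact permutation test, p = 0.0397, adjusted 0.0595). Leaving out the library at 44.7% gave -3.78 points and leaving out the one at 45.7% gave -3.66, each with an adjusted p of 0.0476 by exact permutation. The other 8 leave-outs did not pass, the smallest difference being -2.44 points without the library at 50.04%, and the highest adjusted p was 0.0794 (exact permutation). The library at 50.04%, replicate 1 of weathered 0.67 g/L, also had the lowest TMM scaling factor of all 35, 0.768.

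Weathered 1.34 and unweathered 1.08 g/L, which are unequal concentrations, did differ in this share, while 0.67 against 0.54 g/L was not compared here. The libraries at weathered 1.34 g/L held 46.2%, 46.5%, 44.6%, 45.9% and 48.3%, all above the 5 at unweathered 1.08 g/L. The difference was 3.35 points (exact permutation test, p = 0.00794, the smallest possible, adjusted 0.0238). As a share of estimated counts it was 2.87 points and did not pass (adjusted p = 0.0714, exact permutation).

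Without the variable gene of rank 1 the other 99 genes gave smaller differences that all passed. They were -1.68 points for unweathered 1.08 against 0.27 g/L (adjusted p = 0.0357), -2.74 points for weathered 2.68 against 0.67 g/L (adjusted p = 0.0357) and 1.97 points for weathered 1.34 against unweathered 1.08 g/L (adjusted p = 0.0397, all by exact permutation). Libraries of the compared groups overlapped in each case. In the last comparison replicate 3 of weathered 1.34 g/L, at 38.81%, now lay within unweathered 1.08 g/L (38.78% to 40.45%). Its adjusted p had been 0.0238 with all 100 genes (exact permutation). Since a share is a part of a fixed sum, it does not say whether the RNA of these genes or that of the rest moved.

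**Figure D3:**
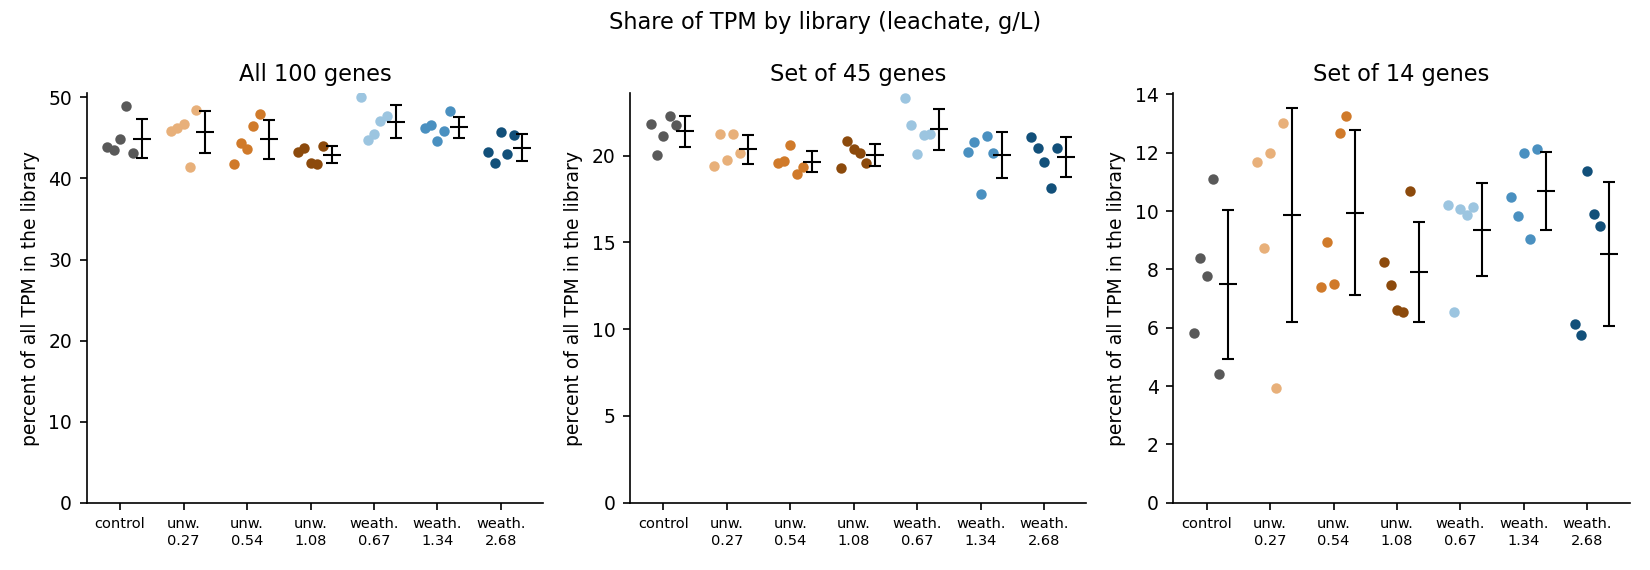
Percent of all TPM in each of the 35 libraries held by all 100 genes, by the set of 45 and by the set of 14, for the control and for unweathered (unw.) and weathered (weath.) leachate at the concentrations in g/L under the axis. Points are libraries, and bars give the mean and SD of 5. All 5 points of weathered 1.34 g/L lie above those of unweathered 1.08 g/L in the first panel, and the third panel has the widest spread, from 3.93% to 13.2%.

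Changes of single genes were tested with edgeR's quasi-likelihood test on the estimated counts of 17982 genes, scaled by TMM, with Benjamini-Hochberg adjustment over all of them and a threshold of 0.05. All 100 genes passed the filter on low counts, and the lowest estimated count of any of them in any library was 898. Values are log2 changes of scaled counts.

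Most of the 100 genes lay a little lower at the highest concentration than at the lowest, and few changes passed the test. For unweathered 1.08 against 0.27 g/L the median log2 change was -0.10, against -0.01 over all genes tested, and 87 of the 100 were below 0, against 50.9% of all. For weathered 2.68 against 0.67 g/L it was -0.22, against 0.00 over all genes, and 98 of 100 were below 0, against 49.5%. Against the control, whose values chose the genes, the medians of the 100 were 0.25 at weathered 0.67 and 0.004 at weathered 2.68 g/L. Those at unweathered 0.27 and 1.08 g/L were 0.05 and -0.02. At the highest concentrations the 100 genes thus lay near the control by median, and at weathered 0.67 g/L above it. In the weathered comparison 40 of the 100 genes had an unadjusted p under 0.05, against 7.34% of all genes tested. The genes are not separate evidence, since 45 varied together in 1 set (median correlation 0.69) and 14 in another (0.73). A shift shared by a set can thus enter such counts many times, here and below. Replicate 1 of weathered 0.67 g/L stood apart, with the highest share of TPM (50.04%) and a TMM scaling factor of 0.768. These counts and medians were not repeated with single libraries left out, so its part in them was not tested.

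The count of genes below 0 depends on the scaling. With total count scaling the median of all genes moved to 0.07 and 0.15 in these comparisons, and 52 and 77 of the 100 genes were below 0. Relative to the median of all genes the 100 genes stayed lower, by -0.09 on TMM and -0.08 on total count scaling for the unweathered leachate and by -0.22 and -0.21 for the weathered. On mean TPM, 50 and 75 of the 100 genes were below, against 36.8% and 24.2% of all genes tested.

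Group means in descending order over the 3 concentrations were frequent among the genes. The counts of such orders also rest on genes that varied together, and they were not repeated with single libraries left out. On TMM-scaled CPM they were lower at each step in 52 genes for the unweathered leachate and in 73 for the weathered, against 19.8% and 17.3% of all genes tested, and in 43 for both, against 4.49%. Means higher at each step were seen in 2 genes and 0 genes, against 16.4% and 19.2%. On TPM the descending orders counted 25, 28 and 14 genes, against 14.2%, 6.02% and 1.48%, and rising orders counted 14 genes for the unweathered and 4 for the weathered leachate, against 22.9% and 36.3%.

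**Figure D4:**
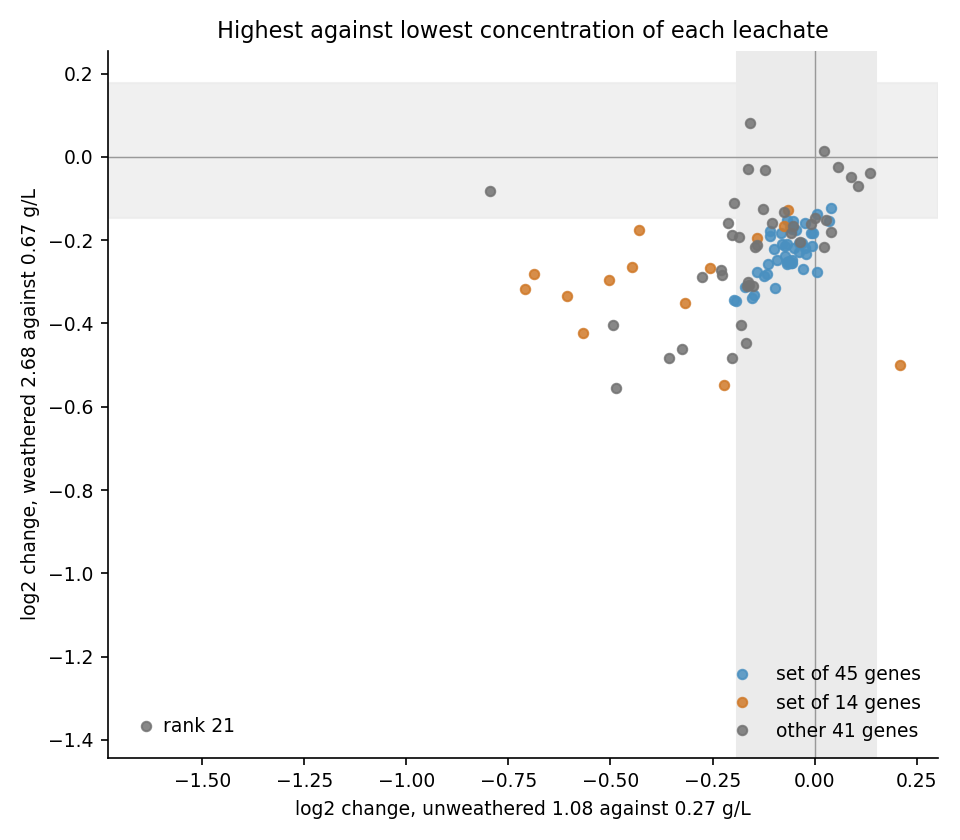
Log2 change of TMM-scaled counts of each of the 100 genes at weathered 2.68 against 0.67 g/L (vertical) and at unweathered 1.08 against 0.27 g/L (horizontal), coloured by set, with grey bands for the middle 50% of all genes tested. The points lie mostly below and to the left of 0, and the gene of rank 21 stands alone at -1.64 and -1.37.

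By the test, 1 of the 100 genes was called lower at unweathered 1.08 than at 0.27 g/L, where 0.567% of all genes were called and 0.133% were called lower. Weathered 2.68 against 0.67 g/L also gave 1 call, lower, where 0.0779% of all genes were called and 0.0111% were called lower. Both calls were the same gene, TRINITY_DN9575_c0_g2 at rank 21, with a single transcript of 948 bases. No gene of the 100 was called higher in either comparison (0 by edgeR, with 0.434% and 0.0667% of all genes).

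This gene measured 3606, 2562, 2337, 3556 and 2665 TPM at unweathered 0.27 g/L, a mean of 2945 (SD 593, n = 5). The means at 0.54 and 1.08 g/L were 1838 TPM (SD 539, n = 5) and 993 TPM (SD 443, n = 5), with 822, 876, 839, 1772 and 658 TPM in the libraries of 1.08 g/L. All 5 of those lay below the 5 of 0.27 g/L, and 4 of them below 900 TPM. Its log2 change of -1.64, a fold of 3.11 (SE of the log2 change 0.26), passed with an edgeR adjusted p of 0.00130.

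In weathered leachate it measured 3352, 3697, 2942, 2097 and 3182 TPM at 0.67 g/L (mean 3054, SD 602, n = 5) and 2776 TPM on average at 1.34 g/L (SD 369, n = 5). At 2.68 g/L it measured 1557, 1830, 1099, 1399 and 902 TPM (mean 1357, SD 367, n = 5), again with no overlap with the lowest concentration. The log2 change here was -1.37 (SE 0.26), with an edgeR adjusted p of 0.0223. This call was lost in the fit of the compared groups only, with total count scaling (log2 change -1.18), and when any 1 of 6 libraries was left out (replicates 1, 2 and 5 of weathered 0.67 g/L and 3, 4 and 5 of weathered 2.68 g/L), where the log2 change lay between -1.38 and -1.24.

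Its control libraries, which placed it at rank 21, were widely spread at 7626, 5258, 3494, 2106 and 5848 TPM (mean 4866, SD 2135, n = 5). The control at 3494 TPM lay within the ranges of unweathered 0.27 and weathered 0.67 g/L. That at 2106 TPM lay within those of unweathered 0.54 and weathered 0.67 g/L. All 5 controls of this gene lay above unweathered 1.08 and weathered 2.68 g/L. In the authors' deposited table its transcript had log2 fold changes against the control of -2.23 in unweathered leachate at 1.08 g/L and of -1.76 in weathered leachate at 2.68 g/L.

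Between the leachates, 5 of the 100 genes were called, all higher at weathered 1.34 than at unweathered 1.08 g/L, where 3.13% of all genes were called and 0.667% were called higher. The median log2 change of the 100 genes was 0.11 against 0.03 over all genes, and 88 were above 0, against 54.4%. With total count scaling 51 were above 0, at a median of 0.01 against -0.06 over all genes, and on mean TPM 43 were above, against 38.2%. The rank 21 gene had the largest change, 1.60 (SE 0.26, edgeR adjusted p = 0.000801), and kept its call whichever of the 10 libraries was left out.

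The other 4 were those of ranks 32, 39, 52 and 59, described by rank after their values were seen. The gene of rank 32, TRINITY_DN39893_c0_g1, measured 2845, 3008, 4216, 3512 and 4068 TPM at weathered 1.34 g/L and 2676, 2828, 2065, 2524 and 1811 TPM at unweathered 1.08 g/L. The lowest of the first group lay just above the highest of the second. Its log2 change of 0.68 (SE 0.17) had an edgeR adjusted p of 0.0181.

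Rank 59, whose deviations followed those of rank 32, measured 1809, 1931, 2654, 2246 and 2662 TPM at weathered 1.34 g/L and 1728, 1794, 1285, 1621 and 1080 TPM at unweathered 1.08 g/L. These groups also met without overlapping, and the change on the log2 scale was 0.71 (SE 0.18, edgeR adjusted p = 0.0244). In both genes the replicates 3 and 5 of unweathered 1.08 g/L were the lowest of their group and the replicates 3 and 5 of weathered 1.34 g/L the highest of theirs.

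Rank 52 measured 2553, 2372, 2779, 2536 and 2604 TPM at weathered 1.34 g/L and 2241, 2168, 1850, 2155 and 1876 TPM at unweathered 1.08 g/L, with no overlap. The log2 scale put it at 0.45 (SE 0.11), with an edgeR adjusted p of 0.0239. For rank 39 the libraries at weathered 1.34 g/L measured 2518, 2414, 2315, 2661 and 2898 TPM and those at unweathered 1.08 g/L 2496, 1735, 1984, 2068 and 1596 TPM. Here 1 library of the second group lay inside the range of the first, and the change was 0.51 on the log2 scale (SE 0.14, edgeR adjusted p = 0.0398).

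Single libraries decided these 4 calls. Without replicate 3 or 5 of unweathered 1.08 g/L, or without replicate 5 of weathered 1.34 g/L, the gene of rank 21 was the only 1 called. Without replicate 3 of weathered 1.34 g/L, whose median correlation with the rest was lower than that of any other library (0.954), it was called together with rank 39 only. Over the 10 libraries left out in turn, rank 39 lost its call in 8 cases and ranks 32, 52 and 59 in 4 each.

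**Figure D5:**
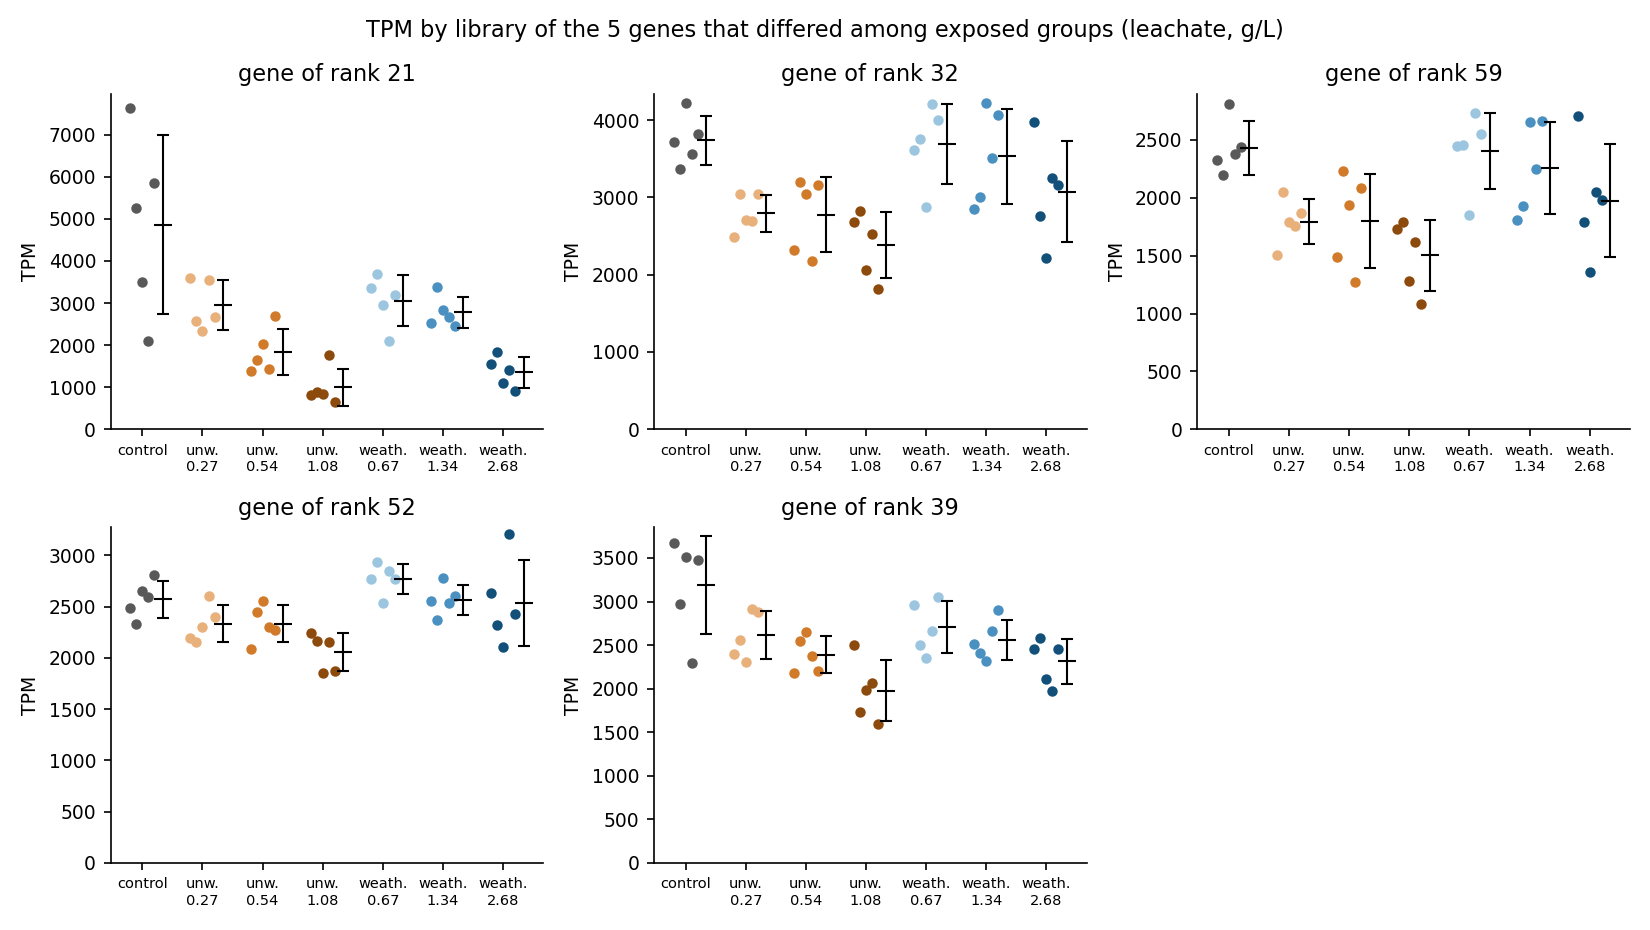
TPM in each of the 35 libraries of the 5 genes called between weathered 1.34 and unweathered 1.08 g/L, for the control and for unweathered (unw.) and weathered (weath.) leachate at the concentrations in g/L under the axis. Points are libraries, and bars give the mean and SD of 5. The mean of the gene of rank 21 is lowest at the highest concentrations, with 993 TPM and 1357 TPM, and the other 4 have their lowest mean at unweathered 1.08 g/L.

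A test for any difference among the 6 exposed groups called 5 of the 100 genes, where 2.46% of all genes were called. These were the same ranks 21, 32, 39, 52 and 59, with edgeR adjusted p-values of 0.000195, 0.0218, 0.0497, 0.0206 and 0.0328. With single libraries left out the count ran from 1 to 6, with rank 21 alone without replicate 3 or 5 of unweathered 1.08 g/L (1.26% and 1.48% of all genes called). Without replicate 4 of weathered 0.67 g/L it was 2 (2.29%), and in the fit of the 6 exposed groups only it was 3 (1.87%). It was also 3 without replicate 4 of unweathered 1.08, replicate 1 or 5 of weathered 0.67 or replicate 5 of weathered 1.34 g/L. The change from the lowest to the highest concentration was not found to differ between the leachates for any of the 100 genes (0 called by edgeR, with 0.0% of all genes, and a smallest adjusted p of 0.999). The unweathered change less the weathered change was above 0 in 83 of the 100 genes, against 49.6% of all genes. Its medians were 0.14 and -0.003. With total count scaling 73 were above 0, against 37.9%. These counts too rest on genes that varied together. At an unadjusted p under 0.05 there was 1 gene, that of rank 64, against 3.40% of all genes. Its mean was 2187 TPM (SD 255, n = 5) and 1336 TPM (SD 436, n = 5) at the lowest and highest unweathered concentration. In weathered leachate these means were 1684 TPM (SD 361, n = 5) and 1807 TPM (SD 469, n = 5), and neither pair passed the test. The higher second mean holds for TPM only. On TMM-scaled counts, which were tested, this gene was lower at the highest than at the lowest concentration of both leachates. For the weathered leachate the fall was slight, with log2 changes from the control of -0.23 (lowest) and -0.31 (highest).

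Against the control, whose values chose the genes, the counts are given as a description and nothing is read from them. At unweathered 1.08 g/L 5 of the 100 genes were called, all lower, where 2.96% of all genes were called and 0.628% were called lower. They were ranks 21, 32, 39, 59 and 64, with log2 changes of -2.19, -0.60, -0.63, -0.65 and -0.73. When each of the 10 libraries was left out in turn the count ran from 2 to 5, and it was under 4 without any 1 control or without replicate 3, 4 or 5 at 1.08 g/L. Ranks 32, 59 and 64 lost their calls in 7, 8 and 8 of these cases, and ranks 21 and 39 in 0. Unweathered 0.54 g/L gave 1 call (0.156% of all genes) and weathered 2.68 g/L 1 (0.89%), both rank 21, at -1.18 and -1.75. The call at 0.54 g/L was lost in 8 of 10 leave-outs, those of 4 controls (replicates 1, 2, 3 and 5) and of replicates 1 to 4 at 0.54 g/L, and 2 genes were called without control replicate 4 (0.609% of all genes).

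No gene was called against the control in the other 3 groups. By edgeR the count was 0 for unweathered leachate at 0.27 g/L, with 0.00556% of all genes called. Weathered leachate gave 0 at 0.67 g/L, with 0.345% of all genes, and 0 at 1.34 g/L, with 0.0334%. At an unadjusted p under 0.05 they were 7, 47 and 15 genes, against 7.28%, 13.7% and 10.4% of all genes, and DESeq2 called 0, 4 and 0, against 0.250%, 3.05% and 0.627% of the genes to which it gave an adjusted p. At weathered 0.67 g/L the edgeR count became 4, against 1.79% of all genes, once its replicate 2 was left out. At weathered 0.67 g/L 95 of the 100 log2 changes were above 0 with TMM scaling and 64 with total count scaling, with medians of 0.25 and 0.03 beside 0.02 and -0.18 over all genes.

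In the authors' deposited tables, which compare transcripts with the control, all 100 genes had at least 1 of 193 transcripts. At an adjusted p under 0.05 these tables called transcripts of 0, 2 and 8 of the genes over the rising concentrations of unweathered leachate, and of 1 gene at each concentration of weathered leachate. Counted as transcripts, 0, 2 and 9 of the 193 were called over the unweathered concentrations and 1 at each weathered concentration. Of all transcripts in these tables, 0.0300%, 0.195% and 3.65% were called over the unweathered concentrations and 0.405%, 0.0900% and 1.15% over the weathered. These percentages are of transcripts and are not to be set beside the counts of genes, which can have several transcripts. For the weathered leachate the gene was rank 9 at the lower 2 concentrations and rank 21 at the highest.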

How the data were processed

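Per the labels' protocols, poly(A) RNA was selected and a directional library kit was used. Per the submitters' processing notes, Trimmomatic 0.38 trimmed the reads, kallisto quantified them, and DESeq2 was also used. Neither the kallisto version nor the assembly is given in the sources used here. The authors deposited, per library, an estimated count, a TPM and a length for each of 34903 transcripts. Their comparison tables hold log2 values (fold change and mean expression), a linear fold, an F score, and p-values before and after adjustment, per the file headers.

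Here TPM and estimated counts were summed per Trinity gene, and the sums of counts were rounded. Genes passed edgeR's filterByExpr (minimum count 10, minimum total 15). edgeR 4.0.16 in R 4.3.3 fitted 7 group means to all 35 libraries with TMM scaling and was tested on simulated data. A standard error was computed from the log2 change and the F value of its test. Shares were compared by exact permutation, adjusted over 3 comparisons. DESeq2 1.42.0, other scalings, filters, lists and single left-out libraries were tried as alternatives.

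Total estimated counts ran from 18081327 to 28390588 per library. No libraries held identical counts. kallisto divides reads among similar sequences, so closely related genes are uncertain. TPM sum to a fixed total, so a rise in some genes lowers others.

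The identifiers named were the 5 highest genes, ranks 100 and 101, genes called between the highest and lowest concentrations (at most 2 in each direction), and the genes of lowest and highest SD. Others were chosen after their values were seen. The genes, lists and tests were chosen with earlier results of these data known.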

Additional observations from a re-analysis of the deposited data

Results flagged for a closer look

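In groups of 5 libraries, 8 of 126 group values had a highest or lowest library far from the others, with a gap of more than 0.71 of the whole range to the nearest one. For independent values from a normal distribution about 1 in 20 would pass this limit. The 126 values are not all independent, since the sets contain some of the single genes. Whether 8 is more than chance gives was not tested. At unweathered 1.08 g/L the rank 3 gene TRINITY_DN6043_c0_g1 had 1 high library at 26503 TPM, the rank 21 gene TRINITY_DN9575_c0_g2 1 high library at 1772 TPM with the next at 876 TPM, and the rank 97 gene TRINITY_DN12619_c0_g1 1 low library at 641 TPM. At weathered 0.67 g/L the set of 14 genes had 1 low library at 6.54% of TPM, and the rank 2 gene TRINITY_DN492_c1_g2 1 high library at 35654 TPM. At weathered 1.34 g/L the share of estimated counts held by the 100 genes had 1 low library at 39.4%, and the set of 45 genes 1 at 17.8% of TPM. At weathered 2.68 g/L the rank 100 gene TRINITY_DN18930_c4_g1 had 1 low library at 1371 TPM. The part of these single libraries in the comparisons was tested only by leaving each out.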

How the results depend on the processing

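No called log2 change and no difference in share changed direction under the alternatives run. Medians against the control did: with total count scaling those of the 100 genes turned from 0.05 to -0.07 (unweathered 0.27 g/L), 0.03 to -0.10 (unweathered 0.54) and 0.08 to -0.06 (weathered 1.34), as those of all genes moved to -0.13, -0.14 and -0.12. At weathered 2.68 g/L the median of 0.00 became -0.05, and -0.01 with DESeq2, with its size factors in edgeR, with upper quartile scaling and with the compared groups only.

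In what follows a percentage in brackets is the share of all genes called under the same alternative (for DESeq2, of genes given an adjusted p). Calls among the 100 genes for unweathered 1.08 against 0.27 g/L numbered 3 with DESeq2 (1.45%) and 2 with upper quartile scaling (0.634%), and 1 to 2 with single libraries left out (0.181% to 0.506%), 2 without replicate 1 of unweathered 1.08 g/L. For weathered 2.68 against 0.67 g/L they numbered 0 with total count scaling (0.161%) and 0 with the compared groups only (0.0242%), and 0 to 1 with libraries left out (0.0330% to 0.105%). For weathered 1.34 against unweathered 1.08 g/L they numbered 8 with DESeq2 (6.66%), 8 with upper quartile scaling (3.23%) and 10 with the compared groups only (3.94%), and 1 to 6 with libraries left out (1.38% to 3.26%). Any difference among the exposed groups gave 9 with DESeq2 (6.67%), 3 with the replicate block (2.26%) and 3 with the compared groups only (1.87%), and 1 to 6 with libraries left out (1.26% to 3.16%). Against the control, unweathered 0.54 g/L gave 0 with total count scaling (0.0167%), without the filter (0.1004%), with a transcript length offset (0.128%), with the replicate block (0.0667%) and with the compared groups only (0.0422%), and 0 to 2 with libraries left out (0.0330% to 0.609%). Unweathered 1.08 g/L gave 3 without the filter (2.11%) and 2 with the replicate block (2.77%), and 2 to 5 with libraries left out (1.80% to 3.21%). Weathered 0.67 g/L gave 4 with DESeq2 (3.05%), and 0 to 4 with libraries left out (up to 1.79%, 1 call without control replicate 4). Weathered 2.68 g/L gave 2 in the list ranked by CPM (0.890%, as in the main list).

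The share of TPM moved by -3.85 to -2.08 points for unweathered 1.08 against 0.27 g/L, by -3.78 to -2.44 for weathered 2.68 against 0.67 g/L and by 2.85 to 3.78 for weathered 1.34 against unweathered 1.08 g/L with libraries left out. The last was 2.87 as a share of estimated counts (adjusted p = 0.0714, exact permutation) and 3.35 with the replicate block (p = 0.0625, the smallest that an exact test of 5 pairs allows). Without the rank 1 gene the first pair became -1.68 and -2.74, past the threshold. The spread ratio was 0.283 from coefficients of variation, 0.299 with a pseudocount of 0.1 and 0.759 on TMM-scaled CPM. The median length was 1199 bases for the longest transcript and 1944 bases in the list ranked by CPM. The cause of these differences was not tested. Of 105 pairs of libraries with the same replicate number, 39 had deviations correlated above 0.1 (median 0.02, from -0.52 to 0.59). Of the 35 libraries, 3 correlated best with their own number. Values for pairs of different numbers are not given beside these, so whether replicate numbers pair the libraries was not settled.

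With 5 libraries a group, changes of small size in single genes can be missed, and every gene had at least 898 estimated counts in each library. All values rest on the assembly's division of sequences into genes.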
